A study of Xerophyta schlechteri with 51 samples.

Results

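Recovery of the dry leaf was followed in non-senescent tissue (NST) of the resurrection plant Xerophyta schlechteri, by setting the 3 NST libraries taken 48 h after rehydration against the 3 NST libraries taken at <10% relative water content (RWC, the water a leaf holds as a share of what it holds at full turgor). These 6 of the 51 libraries in the series were picked out by their labels for tissue and stage. The series sampled leaf blades by RNA sequencing at full turgor, at 75%, 55%, 35% and <10% RWC and 48 h after rewatering, in NST, in pre-senescent tissue (PST, not sampled at full turgor) and in senescent tissue (ST), with 3 libraries in each of 17 groups. It asked how desiccation drives some tissue of the leaf into senescence while other tissue survives. The label that gives the stage refers to the water content of the NST, and the protocols state that water contents varied after rehydration. No mutant or transgenic plant was used, and the dry and rehydrated groups differed, by their labels, only in stage. Whether the 3 libraries of a group stem from different plants is not stated. The p-values therefore reflect the spread among libraries, part of which may be technical.

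Leaves of resurrection plants survive the loss of almost all their water. Species of Xerophyta are poikilochlorophyllous: as they dry they break down chlorophyll and dismantle the thylakoids, the membranes that carry out the light reactions of photosynthesis, and they rebuild both after rain. Dry leaves of such plants are known for abundant transcripts of protective proteins, such as late embryogenesis abundant (LEA) proteins, which are cleared during recovery. The deposited table pairs no gene ID with a name, so markers of these programmes, or of the leaf's cell types, were not looked up, and genes are described here by ID, level and pattern. In whole leaf tissue, fewer cells of a type and less RNA per cell cannot be told apart.

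Levels are given in FPKM (a level that scales fragment counts to transcript length and to the fragments mapped in the library). Summed FPKM ran from 744340 to 952183 in the dry NST libraries and from 790538 to 975290 in the rehydrated ones. The number of sequenced fragments is unknown. Relative depth, the number of fragments behind 1 unit of FPKM, was read from the steps between the lowest values. It was 0.83, 0.74 and 0.78 in dry NST replicates 0, 1 and 2, and 0.66, 0.66 and 0.99 in the rehydrated ones, within a range of 0.50 to 1.66 over the series. Of these 6 libraries, rehydrated replicates 0 and 1 thus had the fewest fragments behind a given low level.

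Rehydrated NST replicates 0 and 1 stood apart by how alike they were. Among transcripts over 100 FPKM, the SD of the log2 ratio between them was 0.151, while it was 0.464 to 1.32 in the other 50 pairs of libraries of 1 group. Between these replicates the spread of the log2 ratio (scaled median absolute deviation) fell steadily with level, from 0.769 at 1 to 3 FPKM to 0.073 over 3000 FPKM, whereas in the other pairs of dry and rehydrated NST it stayed between 0.291 and 0.685 at all levels over 100 FPKM. For 1579 genes whose low values were whole steps, a chi-square per gene was computed on those steps, for genes with 20 or more steps in the pair. It was 4.26 for this pair and 10.9 to 135 for the other pairs. For genes with 4 to 19 steps it was 3.39 for this pair, inside the 2.12 to 5.30 of the other pairs. Pure sampling of known counts would give 1. The steps here rest on estimated depths and rounded values, and how far these raise the chi-square was not tested. Over 3000 FPKM the levels in replicate 1 were also higher, with a median log2 ratio (replicate 0 over 1) of -0.15. They may be 2 libraries or repeat runs of 1 RNA sample, which the values did not settle. If they are runs of 1 sample, n = 3 for rehydrated NST stands for 2 samples and its SDs and p-values are too small. The 2 were kept as separate libraries, and the main counts are also given with their mean counted as 1 library.

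**Figure D1:**
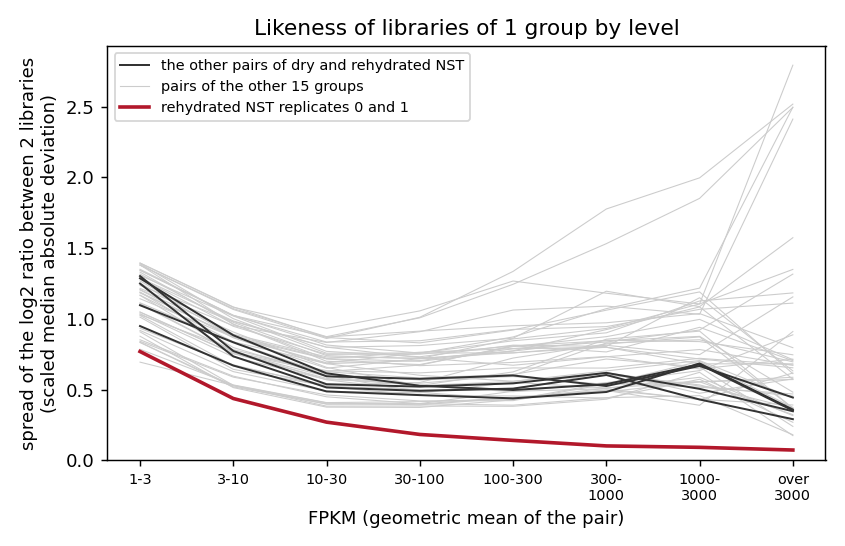
Spread of the log2 ratio between 2 libraries of 1 group (vertical axis) by the level of the transcripts in FPKM (horizontal axis), with 1 line per pair of libraries. The line of rehydrated NST replicates 0 and 1 falls from 0.769 to 0.073, below the lines of the other dry and rehydrated NST pairs at every level.

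Many genes differed between the dry and the rehydrated state, in both directions. Of 18717 genes tested, 5740 were higher 48 h after rehydration (30.7%) and 4460 were lower (23.8%), with 54.5% past the threshold in either direction (limma, adjusted p under 0.05). The median log2 change was 1.73 in the genes that rose and -1.59 in those that fell, beside 0.10 over all genes tested, and the median standard error of a change was 0.37. Changes of at least 1 on the log2 scale were found in 4757 risen and 3446 fallen genes, of at least 4 in 524 and 385, and of at least 6 in 112 and 98. At the far end, 23 genes rose by at least 8 and 3 fell by that much. The rehydrated libraries did not overlap the dry ones in 5436 of the 5740 risen genes and in 4264 of the 4460 fallen ones, and over all genes tested they lay wholly above the dry libraries in 6449 and wholly below in 5197. With rehydrated replicates 0 and 1 counted as 1 library, 5132 genes were higher and 3885 lower.

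The excess of risen over fallen genes depended on the scaling. As deposited, 56.3% of the called genes were higher. Quantile normalization, which forces 1 common distribution on all libraries, moved the median change of all genes by -0.17, from 0.10 to -0.07, and left 48.5% of the called genes higher. The totals were alike (10200 as deposited and 10194 after quantile normalization), so how many genes changed did not depend on this choice, while the balance of directions did.

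**Figure D2:**
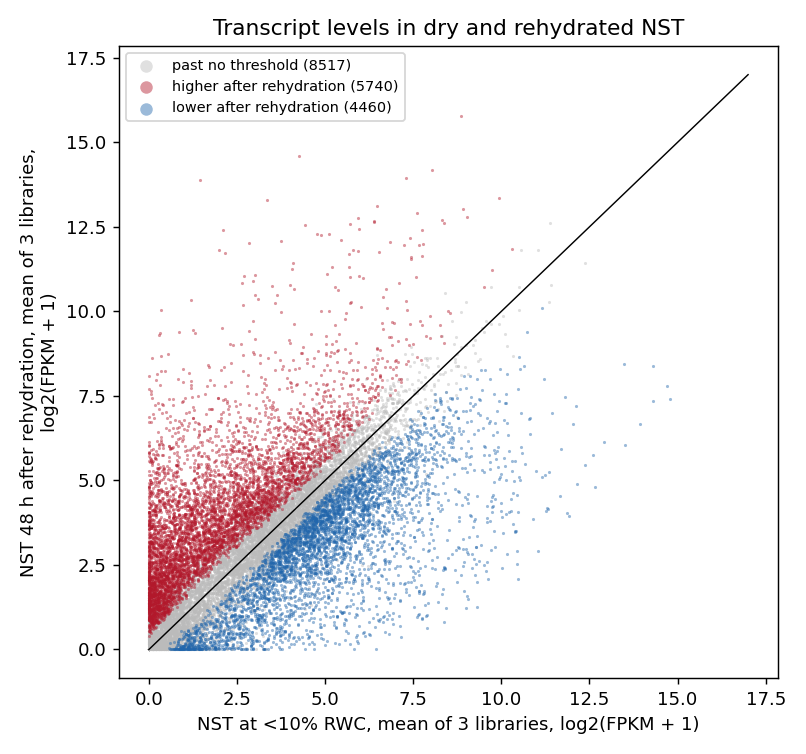
Mean level of each tested gene in rehydrated NST (vertical axis) against dry NST (horizontal axis), both in log2(FPKM + 1), means of 3 libraries each. The 5740 genes higher after rehydration lie above the line of equal levels and the 4460 lower ones below it, with the grey genes past no threshold along the line.

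The 2 genes with the largest rise went from 22.54 FPKM or less in each dry NST library to the top of the rehydrated transcriptome. Xvis03_215637 stood at 0.33, 1.63 and 4.86 FPKM in dry NST replicates 0, 1 and 2, and at 17896.2, 20544.8 and 9450.14 FPKM in the rehydrated ones. All 3 dry libraries were at 4.86 FPKM or less and all 3 rehydrated ones among the most abundant levels, with replicate 2 the lowest of the rehydrated. The gene ranked 12644 by mean level in dry NST and 4 in rehydrated NST, with a log2 change of 12.43 and a standard error of 1.16 (limma, adjusted p = 2.97e-11). Its level at full turgor, in libraries outside the comparison, was 1415 ± 606 FPKM (SD, n = 3). It had dropped to 28.4 ± 15.5 FPKM by 75% RWC (SD, n = 3), so its loss began with the first stage of drying, and its rehydrated level stood well above the hydrated one.

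The other large riser was also far higher after rehydration than at full turgor. Xvis03_221527 stood at 22.54, 14.29 and 17.97 FPKM in the dry NST libraries and at 29781.3, 35598.8 and 14597.7 FPKM in the rehydrated ones. No rehydrated library came near the dry ones, and replicate 2 was again the lowest. The log2 change was 10.36 (SE 1.29, limma, adjusted p = 1.65e-08), and the gene moved from rank 5745 to rank 2. At full turgor it stood at 243.91, 85.69 and 355.11 FPKM, below the lowest rehydrated library in all 3. Across the stages from 75% to 35% RWC it ran from 0.80 FPKM in a library at 75% RWC to 154.21 FPKM in a library at 35% RWC.

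The 2 genes with the largest fall were abundant in dry leaf and returned to their low hydrated levels. Xvis03_211078 stood at 1568.81, 1831.66 and 1002.8 FPKM in dry NST and at 1.13, 1.92 and 11.38 FPKM after rehydration. The groups did not overlap. Replicate 2 was the lowest of the dry libraries and the highest of the rehydrated ones. Its log2 change was -8.39 (SE 0.67, limma, adjusted p = 6.39e-13). At full turgor it stood at 2.88 ± 1.33 FPKM and at 75% RWC already at 360 ± 214 FPKM (SD, n = 3 each).

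Xvis03_218208 behaved alike, from 2851.16, 2841.9 and 1134.06 FPKM in dry NST to 6.94, 1.16 and 24.63 FPKM in rehydrated NST. Its log2 change was -8.11 (SE 0.87, limma, adjusted p = 7.58e-10). Dry replicate 2 was again the lowest of its group and rehydrated replicate 2 the highest. At full turgor this gene stood at 8.38 ± 4.47 FPKM (SD, n = 3), so the rehydrated libraries lay around the hydrated level.

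**Figure D3:**
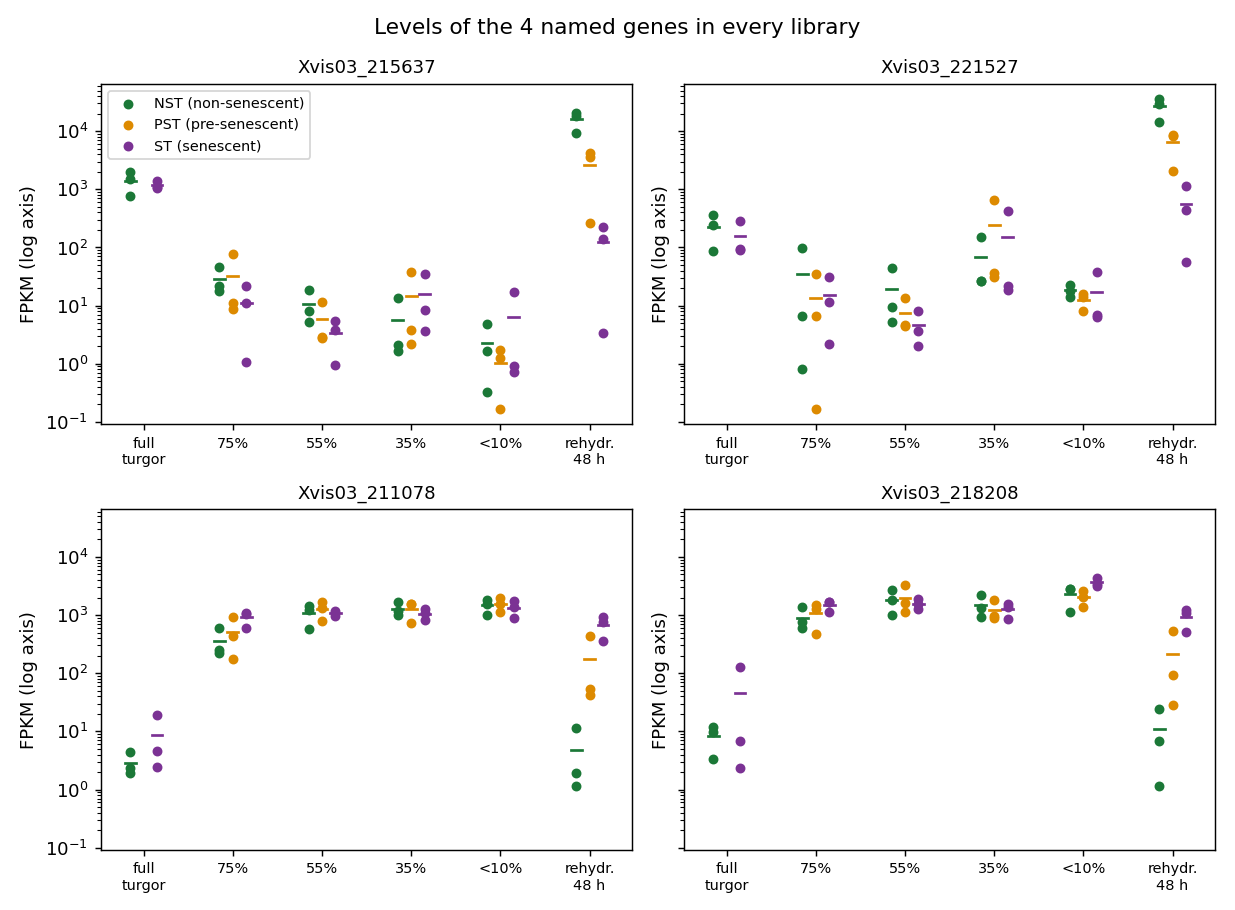
Levels of the 4 named genes in FPKM (vertical axis, logarithmic) in every library, by stage and tissue, with short bars at group means. Both upper genes jump in rehydrated NST, to between 9450.14 and 35598.8 FPKM, and both lower genes drop there to 24.63 FPKM or less, while rehydrated ST stays at 365.31 FPKM or more for the lower genes.

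Most of the abundant transcripts were different ones after rewatering. The 100 transcripts with the highest mean in dry NST held 41.9%, 37.7% and 34.3% of summed FPKM in the dry libraries and 3.79%, 3.74% and 5.97% in the rehydrated ones. The 100 highest of rehydrated NST held 49.6%, 51.5% and 45.3% of the rehydrated libraries and 4.03%, 4.79% and 4.62% of the dry ones. Only 10 transcripts were on both lists of 100. These lists were chosen on the libraries compared, so their gap and the counts of their called members are a description. Of the 100 dry transcripts, 86 were called lower after rehydration and 1 higher, beside 23.8% and 30.7% of all genes tested, with a median log2 change of -5.16. Of the 100 rehydrated ones, 87 were called higher, 1 lower and 12 neither, with a median of 5.24.

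The abundant transcripts of rehydrated leaf were in part those of leaf that had never dried. At full turgor, in libraries that played no part in choosing them, the rehydrated list of 100 held 22.7% ± 5.04 of summed FPKM and the dry list 7.42% ± 1.56 (SD, n = 3 each). By 75% RWC the shares had changed places, to 6.97% ± 2.53 and 26.3% ± 3.47 (SD, n = 3 each). The lists of 100 at full turgor and after rehydration shared 54 transcripts. The single most abundant transcript after rehydration held 7.56%, 7.64% and 4.37% of summed FPKM in the rehydrated NST libraries, against 2.18%, 1.53% and 3.19% at full turgor. In the dry libraries it held 0.0248%, 0.242% and 0.0255%.

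In rehydrated leaf fewer genes made up most of the summed level, while more genes reached 1 FPKM. The most abundant transcripts that together made up 50% of summed FPKM numbered 104, 87 and 156 in the rehydrated libraries, against 187, 249 and 340 in the dry ones and 373, 838 and 526 at full turgor. The rehydrated libraries all lay below the dry ones in this measure. Genes at 1 FPKM or more numbered 14357 ± 45.4 in dry NST and 15916 ± 74.2 in rehydrated NST (SD, n = 3 each), near the 15980 ± 135 of full turgor (SD, n = 3). Relative depth, given above, was lower in rehydrated replicates 0 and 1 than in any dry library and higher in replicate 2. Entries listed at 0 numbered 3179, 3139 and 2140 in the rehydrated libraries and 3016, 2957 and 3198 in the dry ones. The part of depth in these counts was not tested.

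**Figure D4:**
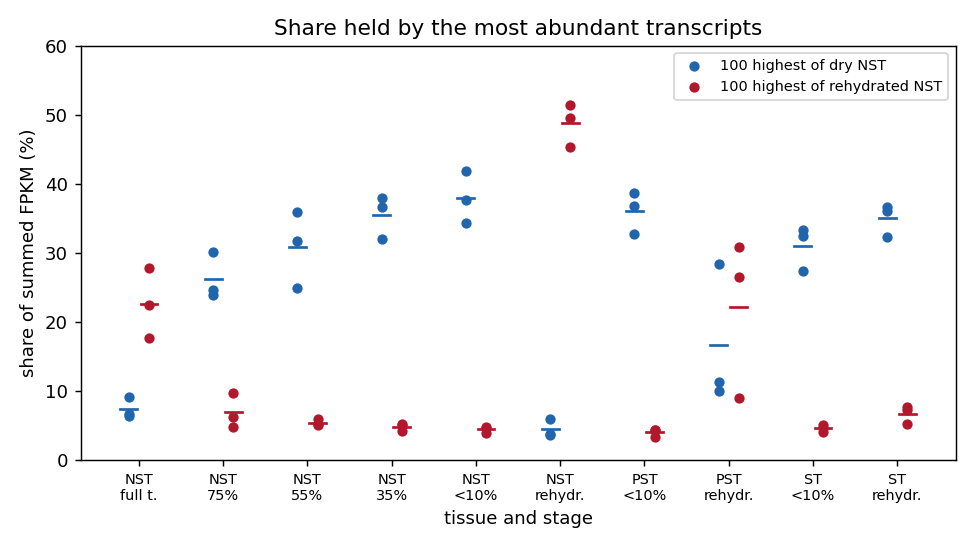
Share of summed FPKM (vertical axis, percent) held in each library by the 100 transcripts with the highest mean in dry NST and the 100 with the highest mean in rehydrated NST, by tissue and stage, with bars at group means. The rehydrated list holds 45.3% to 51.5% in rehydrated NST and 5.29% to 7.67% in rehydrated ST, while the dry list holds 32.4% to 36.7% in rehydrated ST.

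Some transcripts crossed between a listed 0 and a measured level. A total of 127 genes were listed at 0 in all 3 dry libraries and reached at least 1 FPKM in all 3 rehydrated ones. Their median rehydrated mean was 7.84 FPKM, 53 of them reached a mean of at least 10 FPKM, and the highest mean was 274 FPKM. Of these, 69 had at least 1 FPKM in all 3 libraries at full turgor. In the other direction, 32 genes were listed at 0 in all 3 rehydrated libraries and had at least 1 FPKM in all 3 dry ones, of which 4 had at least 1 FPKM in all 3 libraries at full turgor. Because a value of 0 in FPKM may also stand for an estimate that failed, folds are left out here.

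The median level of the genes that changed by at least 1 on the log2 scale had moved the other way while the leaf dried. The median level of the 4757 risen genes, in log2(FPKM + 1), was 1.35, 1.42 and 1.46 in dry NST and 4.10, 4.12 and 3.71 in rehydrated NST, a gap fixed by their choice. The other NST libraries entered that choice only through the filter on low genes and the estimate of spread shared by all groups. In them the median was 3.57 ± 0.07 at full turgor, 2.39 ± 0.30 at 75%, 2.01 ± 0.23 at 55% and 1.56 ± 0.17 at 35% RWC (SD, n = 3 each). The 3446 fallen genes stood at 5.29, 5.17 and 5.14 in dry NST and at 2.87, 2.86 and 3.22 in rehydrated NST. Before drying they had a median of 3.38 ± 0.08, which grew to 4.30 ± 0.30, 4.63 ± 0.27 and 5.03 ± 0.14 at 75%, 55% and 35% RWC (SD, n = 3 each). Over all genes tested the median level was 3.25 ± 0.01 at full turgor, 2.90 ± 0.01 in dry and 3.22 ± 0.02 in rehydrated NST (SD, n = 3 each). It thus moved in the direction of the risen genes, by less than their median but beyond the spread among libraries. In both sets rehydrated replicate 2 lay nearer to the dry state than replicates 0 and 1.

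Fewer of these genes lay on the rehydrated side of a divide at each drier stage. For each gene the midpoint between its dry and rehydrated means was taken as a divide. The genes were chosen on these same means, so dry NST (<10% RWC) and rehydrated NST lie on opposite sides by construction. At full turgor 76.6% of the risen genes lay on the rehydrated side, at 75% RWC 33.8%, at 55% RWC 20.2% and at 35% RWC 0.967% (46 genes). Among the fallen genes the shares were 83.9%, 46.3%, 32.5% and 4.41%. Few of these genes were thus left on the rehydrated side before the last step of drying, from 35% to <10% RWC. That <10% RWC lies on the dry side is fixed by the choice. A group of 940 risen genes (19.8%) and 390 fallen genes (11.3%) lay on the dry side at full turgor and at every drying stage. For them rehydrated leaf alone among the NST stages lay beyond the divide, where the choice places it. The rehydrated mean lay above every full-turgor library in 57.2% of the risen genes, and below all of them in 50.3% of the fallen. Choosing genes on the rehydrated libraries favours such values, which shift the divide further from the dry level. How many of the 940 and 390 genes this placed on the dry side was not tested.

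**Figure D5:**
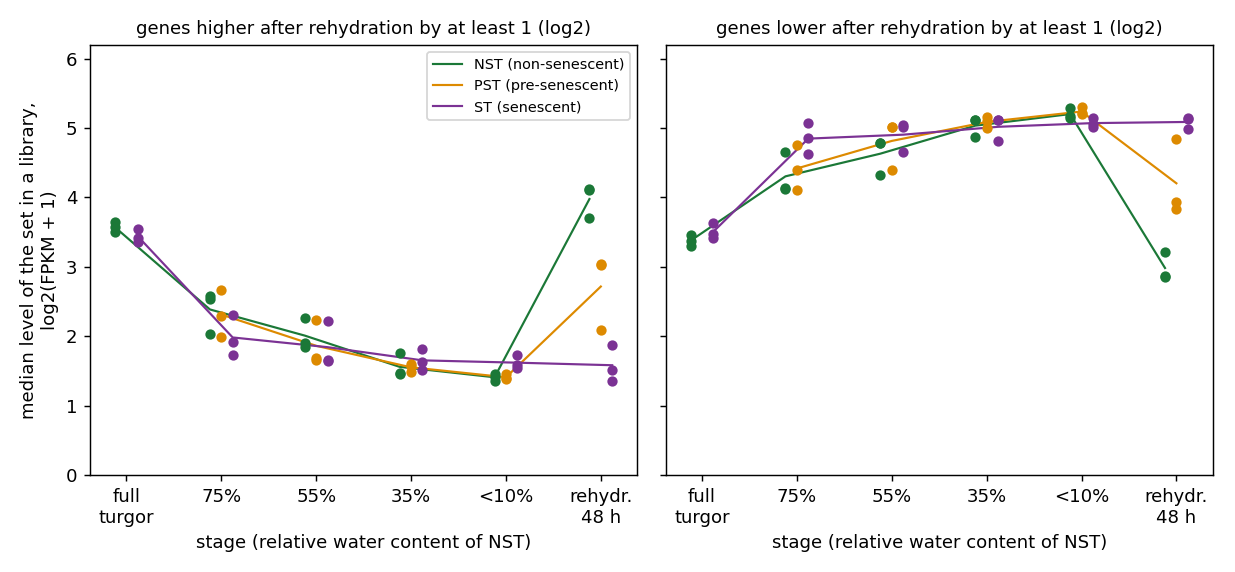
Median level of the 4757 risen genes (left) and the 3446 fallen genes (right) in each library, in log2(FPKM + 1), by stage and tissue, with lines through group means. The sets were chosen on dry and rehydrated NST. In rehydrated ST the medians stay at 1.36 to 1.87 and at 4.99 to 5.14, near the dry NST values, and PST lies between.

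Recovered means lay above the full-turgor range more often in risen genes, and below it more often in fallen genes, than over all genes. Of the 5740 risen genes, the rehydrated mean lay above all 3 full-turgor libraries in 54.9%, among them in 25.4% and below them in 19.6%. Over all genes tested these shares were 35.1%, 31.1% and 33.8%. Of the 4460 fallen genes, 50.0% were below all 3 full-turgor libraries, 28.7% among them and 21.2% above. Choosing genes on the rehydrated libraries favours values on the far side, and these shares carry no test. The distances were mostly under 1 on the log2 scale, as over all genes: 72.7% of the risen and 83.0% of the fallen genes had a rehydrated mean within 1 of the full-turgor mean, beside 79.6% of all genes tested, with median differences of 0.37 and -0.23.

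The rehydrated state also held levels not seen in any other NST library. In 1472 genes (7.86% of those tested) all 3 rehydrated libraries lay above the other 15 NST libraries, and in 972 (5.19%) below them. The same counts for dry NST were 151 above and 151 below (0.807% each), and for NST at full turgor 1023 and 561 (5.47% and 3.00%). Rehydrated replicates 0 and 1 were the closely alike pair described above, and dry NST has a neighbouring drying stage at 35% RWC; the part of either in these counts was not tested.

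Rehydration moved ST in another way than NST. The change from dry to rehydrated differed between ST and NST in 9524 genes by the limma interaction (50.9% of those tested), with 3959 more upward in ST (21.2%) and 5565 more downward (29.7%). The total was 8741 with rehydrated NST replicates 0 and 1 counted as 1 library. Quantile normalization turned this balance, with 52.5% of the called genes more upward in ST in place of 41.6%, and moved the median of all genes by 0.32. In ST itself, 2576 genes were higher after rehydration (13.8%) and 3028 lower (16.2%), 29.9% in all. The higher genes were 46.0% of these, or 54.4% after quantile normalization, so this balance also turned. Among the 5740 genes that rose in NST, 596 also rose in ST (10.4% of the NST list and 23.1% of the ST list) and 695 fell (12.1%), both below the share over all genes. Among the 4460 that fell in NST, 663 fell in ST (14.9% and 21.9%) and 887 rose (19.9%, above the share over all genes). The NST and ST libraries compared here are different libraries, although dry ones of the same number deviated together (lowest correlation 0.39). The 4757 strongly risen genes had a median change of 0.00 in ST, with quartiles of -0.48 and 0.49. The total of 5604 in ST was 3724 without dry ST replicate 0 and 3047 when the fit held ST dry and rehydrated leaf alone. The 596 shared risen genes were 362 and 388 without dry ST replicates 0 and 1, 350 without rehydrated ST replicate 0 and 344 in fits of the compared groups alone.

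The named genes, picked for their change in NST, changed less in ST. Xvis03_215637 reached 229.39, 141.81 and 3.36 FPKM in rehydrated ST, against 0.92, 0.71 and 17.2 FPKM in dry ST, so the ST groups overlapped. Its log2 change in ST was 3.74 (limma, adjusted p = 0.0129), a difference from NST of -8.69 with a standard error of 1.64 (limma interaction, adjusted p = 3.93e-05). Xvis03_221527 rose in ST to 1153.12, 446.21 and 55.24 FPKM, with a log2 change of 4.55 (limma, adjusted p = 0.00659), and here the difference from NST was -5.81 with a standard error of 1.82 (limma interaction, adjusted p = 0.00782). Xvis03_211078 stood at 682 ± 288 FPKM in rehydrated ST and at 1339 ± 437 FPKM in dry ST (SD, n = 3 each), a change of -1.02 that missed the threshold (limma, adjusted p = 0.265). The corresponding levels of Xvis03_218208 were 930 ± 372 and 3642 ± 555 FPKM (SD, n = 3 each), a change of -2.05 (limma, adjusted p = 0.0706). For both fallen genes the change differed from that in NST, by 7.37 and 6.05 (limma interaction, adjusted p = 7.97e-08 and adjusted p = 0.000105).

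PST recovered in the direction of NST, with a wide spread between its libraries. After rehydration 3050 PST genes were higher (16.3%) and 2575 lower (13.8%), 30.1% in all. The higher genes were 54.2% of these, or 50.0% after quantile normalization. Of the 5740 genes that rose in NST, 2533 rose in PST (44.1% of the NST list and 83.0% of the PST list) and 35 fell (0.61%). Of the 4460 that fell in NST, 1952 fell in PST (43.8% and 75.8%) and 18 rose (0.404%). The 4757 strongly risen genes had a median change of 0.94 in PST and the 3446 strongly fallen ones -1.01. The median levels of the risen genes were 3.02, 3.04 and 2.09 in rehydrated PST replicates 0, 1 and 2, with replicate 2 nearest to the dry level. The rehydration change differed between PST and NST in 2573 genes (13.7%), 948 more upward in PST (5.06%) and 1625 more downward (8.68%). That total was 1555 without rehydrated PST replicate 2, 1752 with rehydrated NST replicates 0 and 1 counted as 1 library, 1695 in a fit of the compared groups alone and 4112 with library weights. Dry NST and PST libraries of the same number deviated together (correlations of 0.77, 0.65 and 0.63), and rehydrated ones did not all do so. The NST and PST lists are thus not independent, and the part of this in their overlap was not tested. With a replicate block within each stage, chosen after seeing the data, the PST against NST total was 6598. Of the 2573, 36.8% were more upward in PST, or 48.0% of the calls after quantile normalization. Without rehydrated PST replicate 0 or 1, the PST total of 5625 was 3297 or 3493, and it was 2146 in a fit of dry and rehydrated PST alone. The shared risen genes were 1623 without rehydrated PST replicate 0, and the shared fallen genes 1160 and 1147 without replicates 0 and 1. In fits of the compared groups alone they were 1105 and 611, and with library weights the shared fallen genes were 3010.

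Both named risers also rose in PST and both named fallers fell. Xvis03_215637 stood at 3538.5, 4194.77 and 260.11 FPKM in rehydrated PST (log2 change 9.67, limma, adjusted p = 8.02e-08), and Xvis03_221527 at 8413.29, 8717.42 and 2061.28 FPKM (8.65, limma, adjusted p = 3.37e-06). Neither change differed from that in NST past the threshold (differences of -2.77 with a standard error of 1.64 and -1.71 with a standard error of 1.82). Xvis03_211078 stood at 53.05, 42.86 and 440.77 FPKM and Xvis03_218208 at 93.76, 28.61 and 524.53 FPKM, both highest in replicate 2. Their changes of -3.91 and -4.10 were smaller in size than in NST, with differences of 4.48 (limma interaction, adjusted p = 0.00108) and 4.00 (limma interaction, adjusted p = 0.0241). Across the 3 tissues, 437 of the 18717 genes tested were called higher after rehydration in every one and 512 lower in every one. These counts were not repeated under the alternatives, under which the ST and PST totals they rest on moved. Same-number dry libraries of the tissues deviated together, so the lists are not independent.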

How the data were processed

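The authors deposited 1 table of FPKM values, rounded to 2 decimals, with 1 column for each of 51 libraries of leaf blade RNA. The submitters' processing notes name TopHat, Bowtie2 and Cuffdiff. Sources used here do not state versions, settings or how the deposited FPKM were scaled. The file header names no unit, which was taken from Cuffdiff and the values. Column names give group and a replicate number (0, 1 or 2), and libraries are named by these. Columns whose names give 100 as the stage were read as full turgor, on which every full-turgor value rests.

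The table has 21815 entries with 21282 different IDs. Genes with at least 1 FPKM in at least 3 libraries were tested (18717). Values were taken to log2(FPKM + 1), so fold changes of low genes are understated. A model with a mean for each of the 17 groups was fitted to the 51 libraries in limma 3.58.1 (R 4.3.3), with a variance trend (34 residual degrees of freedom), two-sided, with Benjamini-Hochberg adjustment over all genes tested and a threshold of 0.05. Relative depth was read from 2337 low genes, and 82.7% of library pairs met within 0.05 on the log2 scale.

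Named are the 2 genes that rose most and the 2 that fell most among those past the threshold, with libraries that did not overlap, a mean of at least 10 FPKM in the higher group and an ID listed once. Comparison, lists and rules were chosen with earlier results of these data known. Same-number deviations of dry and rehydrated NST correlated at 0.04, -0.09 and -0.07, and no pairing was used in the main fit. Because rehydrated replicates 0 and 1 were closely alike, these correlations are not separate checks and cannot show that pairing is absent. For ST and PST against NST the same-number correlations were over 0.1 in the dry libraries and not in all rehydrated ones. Alternatives were another pseudocount, 2 other filters, quantile normalization, fewer groups in the fit, a replicate block, library weights, averaging 2 alike libraries and leaving out each library.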

Additional observations from a re-analysis of the deposited data

Results flagged for a closer look

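The change from dry to rehydrated differed between tissues by a test of the difference itself (limma interaction, Benjamini-Hochberg adjusted) in 9524 genes for ST against NST and in 2573 for PST against NST. Among the named genes the difference from NST in ST was -8.69 for Xvis03_215637, -5.81 for Xvis03_221527, 7.37 for Xvis03_211078 and 6.05 for Xvis03_218208 on the log2 scale. In PST it was 4.48 for Xvis03_211078 and 4.00 for Xvis03_218208. The 4 genes were chosen for their change in NST, which favours a larger change there.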

How the results depend on the processing

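The NST total of 10200 stayed within 1.5 times under all 9 alternatives (8666 to 12097) and without any 1 of its 6 libraries (9022 to 9720), and each named gene kept its direction and its side of the threshold in all of them. With the replicate block the NST total was 10517, and 8825 with the block and only the 6 libraries compared. The share higher was 48.5% after quantile normalization and 51.9% to 58.2% otherwise. The ST against NST total of 9524 ran from 8073 to 12489 under the alternatives, the highest with a replicate block within each stage, an alternative chosen after seeing the data, and from 8466 to 9315 without 1 library. The PST against NST total of 2573 was 1695 in a fit of the compared groups alone, 4112 with library weights, 6598 with the block within each stage and 1555 to 2936 without 1 library. In fits of the compared groups alone the ST total was 3047 and the PST total 2146, the genes risen in NST and ST 344, those risen in NST and PST 1105 and those fallen in NST and PST 611. The last were 3010 with library weights. Without 1 library the ST total ran from 3724 to 5399, the PST total from 3297 to 6812, genes risen in NST and ST from 350 to 602, risen in NST and PST from 1623 to 3034 and fallen in both from 1147 to 2441. The NST total was 9888 in a fit of dry and rehydrated NST alone. A fit of fewer groups has fewer libraries to estimate the spread, and what lay behind the lower totals was not tested. Absolute depth is unknown, which leaves counting error of low genes unmeasured.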

Other observations

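How the changed genes of a level class divided into risen and fallen depended on how level was defined. By mean level over all 51 libraries, most of which come from drying stages, 41.2% of the lowest of 4 equal classes of genes rose in NST on rehydration and 6.86% fell, against 16.5% and 46.1% of the highest class. By level in NST at full turgor, 23.8% of the lowest class rose and 19.7% fell, against 37.3% and 23.8% of the highest class.

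Some IDs occur on more than 1 entry of the table. Of 450 such IDs with at least 2 entries tested, 130 had at least 2 entries called in NST, with 116 moving in 1 direction and 14 (10.8%) in opposite directions. What the entries of 1 ID stand for is not given in the sources used here.

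Genes with consecutive ID numbers had changes in NST that correlated weakly (Pearson 0.11 over 12451 pairs), against 0.04, 0.02 and 0.00 at ID distances of 2, 5 and 50. This is a description across genes, which are not independent replicates, and whether ID order follows genome order is not given in the sources used here.

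Among the rehydrated libraries, same-number deviations from the group mean correlated between NST and ST at 0.24, -0.06 and 0.28 for numbers 0, 1 and 2, and between NST and PST at 0.34, -0.03 and 0.30. In dry leaf the same correlations were 0.54, 0.39 and 0.48 for ST and 0.77, 0.65 and 0.63 for PST. Numbers 0 and 1 of rehydrated NST are the pair that was closely alike, and only number 1 was low. The reason was not tested.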
